A study of Mus musculus with 20 samples.

Results

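The genes described here are 9 genes of periportal hepatocytes: Gls2, Hal, Sds, Sdsl, Cyp2f2, Aldh1b1, Cdh1, Ctsc and Pigr. They were taken by name, after gene identifiers had been matched to mouse GRCm38 symbols, and all 9 were found among the 28100 genes listed in either of the deposited count tables. The study measured RNA in 20 livers of male C57BL/6J mice, 5 per group, to ask what gain and loss of Pklr, the liver and red cell pyruvate kinase gene, do in fatty liver disease. Every mouse received an intravenous AAV8 vector at 8 weeks of age and then the diet labelled HF/HS up to 25 weeks, so no liver here is from an uninjected animal or from one on another diet. The series description places the vectors under the thyroxine binding globulin promoter, which is active in hepatocytes. shPKLR livers carried a hairpin against Pklr and shLUC livers one against firefly luciferase, which is their control. PKLR livers carried the Pklr cDNA and GFP livers the GFP gene, which is the control of the overexpression.

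Hepatocytes differ along the liver lobule. Those around the portal vein receive blood rich in oxygen and nutrients and are known for amino acid breakdown, urea synthesis and gluconeogenesis, while those around the central vein, under Wnt and beta-catenin signals, are known for glutamine synthesis and drug oxidation. Among the 9 genes, Gls2 (liver glutaminase), Hal (histidine ammonia-lyase), Sds (serine dehydratase) and Sdsl (serine dehydratase-like) release ammonia from amino acids. Cyp2f2 is a cytochrome P450 and Aldh1b1 a mitochondrial aldehyde dehydrogenase. Cdh1 encodes E-cadherin, Pigr the receptor that carries polymeric IgA across epithelia, and Ctsc the lysosomal protease cathepsin C.

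Between 29933820 and 45413803 reads were counted per liver in 19 livers, and 167891680 in the one labelled shPKLR replicate 4. Levels are given as CPM, counts per 1000000 counted reads, with TMM scaling over all 20 livers, and counts behind a single value ran from 233 for Sdsl in shPKLR replicate 1 to 187572 for Pigr in shPKLR replicate 4. Pklr itself averaged 54.9 ± 23.3 CPM in shPKLR livers and 479 ± 116 CPM in shLUC livers (SD, n = 5 each), and 742 ± 210 CPM in PKLR livers and 118 ± 34.5 CPM in GFP livers (SD, n = 5 each). It did not overlap within either experiment. Hepatocyte markers (6 of 7 were matched, Alb and Apoa1 among them) summed to between 67349 and 104192 CPM in shPKLR livers, 86525 and 93664 CPM in shLUC livers, 77250 and 111007 CPM in PKLR livers, and 87473 and 120259 CPM in GFP livers.

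Relative to the length of their exons, the 9 genes covered a wide range of levels. Averaged over the 4 group means, Cyp2f2 stood at 372 CPM per kilobase and Pigr at 278. Gls2, Hal and Sds followed at 83.9, 58.5 and 52.3 CPM per kilobase, and Aldh1b1 at 29.7. Ctsc, Sdsl and Cdh1 were the lowest, at 8.86, 7.99 and 7.28 CPM per kilobase. The group means of Gls2 ran from 65.1 to 99.96 CPM per kilobase, those of Hal from 48.3 to 67.3, those of Sds from 41.6 to 68.0 and those of Aldh1b1 from 19.7 to 49.6. Each of these 4 genes thus overlapped with its neighbour in the order, as did the 3 lowest genes with each other.

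In PKLR livers against GFP livers, Aldh1b1 fell to 45.3 CPM in PKLR livers, against 114 CPM in GFP livers. The 4 ammonia-releasing enzymes and Cdh1 had log2 fold changes between -0.69 and -0.46 that did not pass, and the other 3 genes had values of 0.06 to 0.27. Aldh1b1 was the only one of the 9 to pass edgeR's quasi-likelihood test at an adjusted p of 0.05, a threshold that 2.03% of the 15842 genes tested passed in either direction and 0.846% passed as lower. Groups did not overlap for 3 of the 9 genes, Aldh1b1, Gls2 and Sdsl, each lower in PKLR livers, against 4.87% of all genes tested in either direction and 2.17% that lay lower. The median log2 fold change of the 9 was -0.60, and that of all genes was 0.01. At an unadjusted p under 0.05, 6 of the 9 were lower and none was higher, against 18.8% of all genes in both directions. DESeq2 called 4 of the 9 and 6.99% of all genes, and limma-voom 1 of the 9 and 1.62% of all genes. In bulk tissue, fewer cells of a type and less RNA per cell cannot be told apart.

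Aldh1b1 (ENSMUSG00000035561; GRCm38 chromosome 4, 45799022 to 45804604, plus strand) oxidises acetaldehyde and other aldehydes in mitochondria. It stood at 53.4, 30.1, 66.4, 45.5 and 31.1 CPM in PKLR replicates 1 to 5, against 138, 125, 109, 93.8 and 103 CPM in GFP replicates 1 to 5. The highest PKLR liver thus lay below the lowest GFP liver. The means were 45.3 ± 15.4 CPM in PKLR livers and 114 ± 17.7 CPM in GFP livers (SD, n = 5 each), a log2 fold change of -1.32 (SE 0.21, edgeR adjusted p = 0.015). The call held without each of the 10 livers in turn, where the log2 fold change ran from -1.51 to -1.20. It ended in a fit that shared 1 estimate of the spread over all 20 livers (adjusted p = 0.084).

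The promoter of Aldh1b1 is shown because it is the gene whose fall passed the test. The 300 bases from 250 before to 50 after its start (RefSeq, GRCm38.p6, chr4:45798772-45799071, plus strand) read, 5′ to 3′, with motif matches in capitals:
Aldh1b1: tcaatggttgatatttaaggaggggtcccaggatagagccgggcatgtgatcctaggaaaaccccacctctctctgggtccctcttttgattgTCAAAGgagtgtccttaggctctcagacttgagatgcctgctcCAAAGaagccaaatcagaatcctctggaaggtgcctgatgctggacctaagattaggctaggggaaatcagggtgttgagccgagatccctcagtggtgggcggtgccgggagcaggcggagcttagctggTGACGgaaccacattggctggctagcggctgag
Both strands were searched for 4 short motifs. CTTTGA is the core of TCF/LEF sites, which beta-catenin partners bind, and was held by 16.0% of the 32851 promoter windows in the table. CAAAG occurs in sites of the hepatocyte factor HNF4, and 53.9% of windows held it. An E-box was searched as CACGTG, which 7.15% of windows held. A part of the cAMP response element was searched as TGACG, which 20.8% of windows held. In the Aldh1b1 window the first run of capitals reads CTTTGA on the other strand and overlaps a match to the HNF4 motif. The second run is another match to the HNF4 motif, the third is the cAMP element part, and the E-box letters were not found. Of the 9 genes, 5 had a promoter in the table. The TCF/LEF core was also found in the window of Hal, the HNF4 motif in those of Hal and Ctsc, and the E-box in that of Pigr, while the Cyp2f2 window held no match.

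Gls2 (ENSMUSG00000044005; chromosome 10, 128194457 to 128210004, plus strand) converts glutamine to glutamate and ammonia. It stood at 174, 219, 291, 191 and 256 CPM in PKLR replicates 1 to 5, against 332, 293, 379, 329 and 403 CPM in GFP replicates 1 to 5. All PKLR livers lay below all GFP livers, by a narrow margin between PKLR replicate 3 and GFP replicate 2. The log2 fold change was -0.60 (SE 0.15), which missed the threshold with an edgeR adjusted p of 0.060. It passed with DESeq2 (adjusted p = 0.0032), with no filter on low counts (adjusted p = 0.042) and without PKLR replicate 3 (adjusted p = 0.039).

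Sdsl (ENSMUSG00000029596; chromosome 5, 120458186 to 120472810, minus strand) and Sds (ENSMUSG00000029597; chromosome 5, 120476526 to 120483932, plus strand) lie head to head, 3716 bases apart from start to start. Sds turns serine into pyruvate and ammonia, and Sdsl is its relative by sequence. Sdsl stood at 7.18, 9.34, 10.9, 9.96 and 11.1 CPM in PKLR replicates 1 to 5, against 11.9, 12.7, 14.8, 15.8 and 19.8 CPM in GFP replicates 1 to 5. The groups were apart, with PKLR replicate 5 close to GFP replicate 1. The log2 fold change was -0.62 (SE 0.15, edgeR adjusted p = 0.061; DESeq2 adjusted p = 0.0064).

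Sds stood at 50.4, 65.3, 101, 66.5 and 69.5 CPM in PKLR replicates 1 to 5, against 76.3, 82.7, 116, 155 and 146 CPM in GFP replicates 1 to 5. Only PKLR replicate 3 reached into the range of the GFP livers. The log2 fold change was -0.69 (SE 0.23, edgeR adjusted p = 0.14; DESeq2 adjusted p = 0.035). Transcripts on the opposite strand overlap Sds: 21.2% of its 50-base stretches also occur, in reverse complement, in Plbd2 or Gm15690. The strand setting of the counting is not given, so part of the Sds counts may belong to them. Plbd2 averaged 61.3 ± 5.65 CPM in PKLR livers and 54.7 ± 5.34 CPM in GFP livers (SD, n = 5 each; log2 fold change 0.18), and was looked at after its values were seen.

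Hal (ENSMUSG00000020017; chromosome 10, 93488768 to 93519304, plus strand) starts histidine breakdown. It ranged from 177 to 354 CPM in PKLR livers, with a median of 262, and from 271 to 444 CPM in GFP livers, with a median of 386. The ranges overlapped, and the log2 fold change of -0.46 (SE 0.19, edgeR adjusted p = 0.21) did not pass.

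Cdh1 (ENSMUSG00000000303; chromosome 8, 106603351 to 106670246, plus strand) holds epithelial cells together, in bile duct cells as well as in periportal hepatocytes. It stood at 17.2, 31.3, 24.4, 37.5 and 38.3 CPM in PKLR replicates 1 to 5, against 58.3, 59.1, 33.3, 41.6 and 38.4 CPM in GFP replicates 1 to 5. PKLR replicates 4 and 5 reached into the GFP range, and the log2 fold change of -0.62 (SE 0.24, edgeR adjusted p = 0.18) did not pass. The 9 cholangiocyte markers were all detected and summed to between 49.8 and 67.4 CPM in PKLR livers and between 51.1 and 67.6 CPM in GFP livers, which is nearly the same range.

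Cyp2f2, Pigr and Ctsc had values above 0 in PKLR livers against GFP livers, and none passed. Cyp2f2 (ENSMUSG00000052974; chromosome 7, 27119909 to 27133660, plus strand) averaged 785 ± 124 CPM in PKLR livers and 656 ± 93.2 CPM in GFP livers (SD, n = 5 each), with a log2 fold change of 0.27 (SE 0.14, edgeR adjusted p = 0.31). The antisense gene Gm15883 shares 9% of its 50-base stretches. Pigr (ENSMUSG00000026417; chromosome 1, 130826684 to 130852249, plus strand) averaged 1126 ± 172 CPM in PKLR livers and 1037 ± 169 CPM in GFP livers (SD, n = 5 each; log2 fold change 0.13, SE 0.14).

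Ctsc (ENSMUSG00000030560; chromosome 7, 88278085 to 88310888, plus strand) averaged 54.0 ± 11.5 CPM in PKLR livers and 52.3 ± 13.6 CPM in GFP livers (SD, n = 5 each; log2 fold change 0.06, SE 0.19). This gene is also active in macrophages and other immune cells. The 9 macrophage markers, none at 0, summed to between 101 and 293 CPM in PKLR livers and between 109 and 455 CPM in GFP livers, and their part in the Ctsc level was not tested. The sign of the Ctsc value turned without GFP replicate 2 (-0.01), PKLR replicate 3 (-0.04) or PKLR replicate 5 (-0.01).

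**Figure D1:**
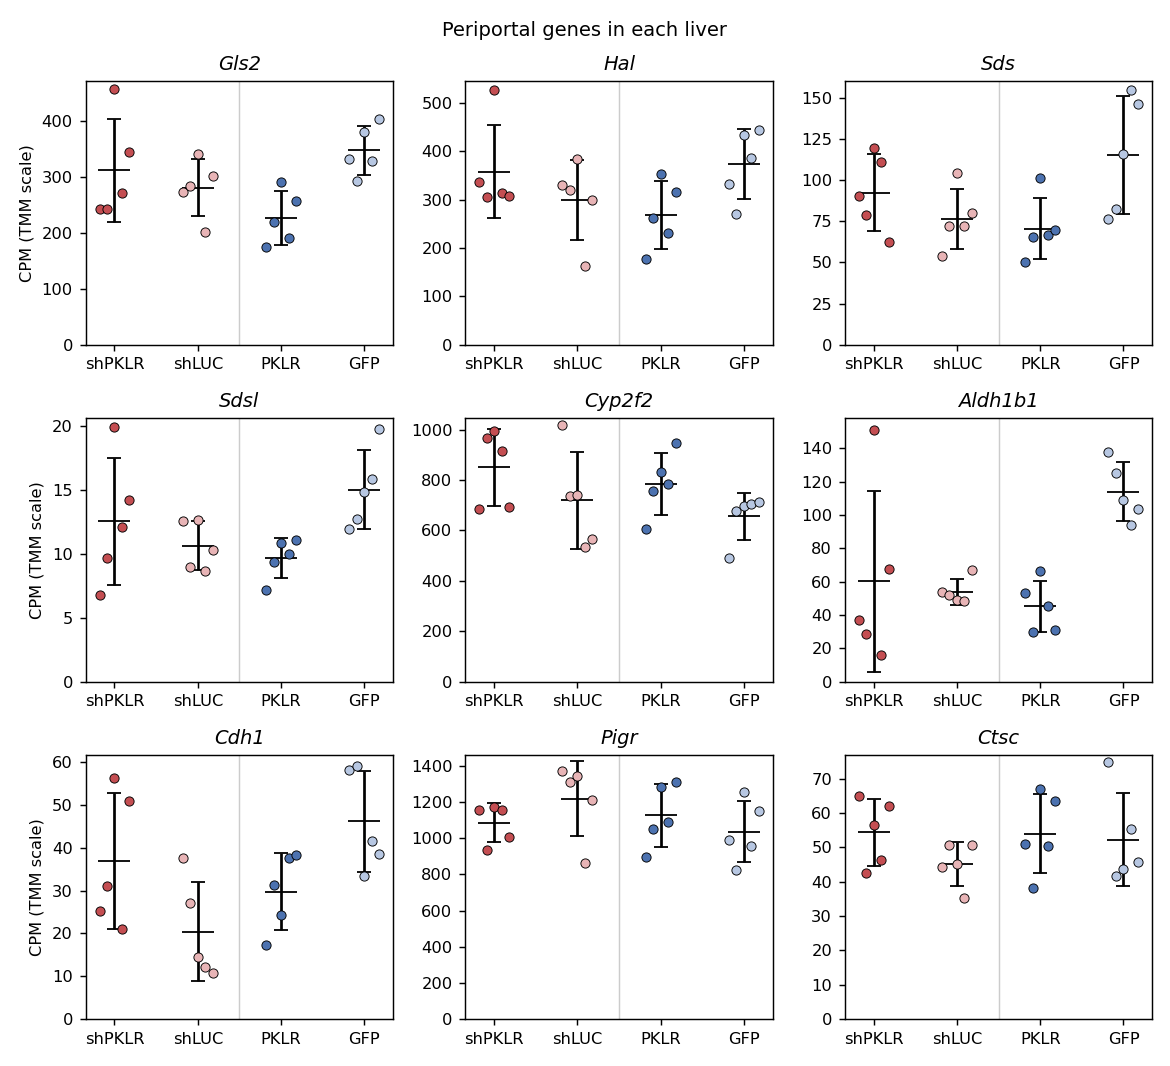
CPM with TMM scaling (vertical axes, from 0) of the 9 genes in each liver, with points for livers and lines for the group mean ± SD (n = 5). For Aldh1b1 the PKLR livers lie between 30.1 and 66.4 CPM, all below the GFP livers, and the shPKLR livers are the most scattered.

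Knockdown of Pklr asked the reverse question, and here none of the 9 genes passed. edgeR called 0 of the 9, as did DESeq2 and limma-voom, and 1 had an unadjusted p under 0.05, Cdh1. Over all 15611 genes tested, edgeR called 0.00641%, DESeq2 1.67% and limma-voom 0.0512%, and 15.0% had an unadjusted p under 0.05 in edgeR. Of the 9 genes 8 had log2 fold changes above 0, with a median of 0.23, while the median of all genes was 0.02. One liver, shPKLR replicate 3, was high for nearly the whole list. The mean log2 CPM of the 9 was 7.57 in it and ran from 6.75 to 7.07 in the other shPKLR livers. Groups did not overlap for 0 of the 9, against 3.22% of all genes.

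Cdh1 stood at 25.3, 31.0, 56.4, 20.9 and 50.9 CPM in shPKLR replicates 1 to 5, against 37.6, 27.1, 14.4, 12.0 and 10.8 CPM in shLUC replicates 1 to 5. shPKLR replicates 3 and 5 were the highest, while shLUC replicates 1 and 2 lay inside the shPKLR range. The log2 fold change was 0.85 (SE 0.37, edgeR adjusted p = 0.32). Cholangiocyte markers summed to between 46.7 and 76.1 CPM in shPKLR livers and between 46.8 and 57.1 CPM in shLUC livers, and their part in the Cdh1 level was not tested.

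Within shPKLR livers, Aldh1b1 was the most uneven gene of the 9. It stood at 37.2, 28.9, 151, 16.0 and 67.8 CPM in shPKLR replicates 1 to 5, against 53.7, 51.9, 48.8, 48.3 and 67.1 CPM in shLUC replicates 1 to 5. Livers of the same hairpin against Pklr thus lay on both sides of the narrow shLUC group, with a coefficient of variation of 90.1% in shPKLR livers and 14.2% in shLUC livers. The log2 fold change was 0.15 (SE 0.46, edgeR adjusted p = 0.88) and turned to -0.53 without shPKLR replicate 3.

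The ammonia-releasing enzymes also had their highest shPKLR value in replicate 3, and so did Cdh1, Cyp2f2 and Pigr (56.4, 994 and 1175 CPM). Only Ctsc was highest in another shPKLR liver, replicate 1 (64.9 CPM). Gls2 stood at 243, 242, 457, 272 and 344 CPM in shPKLR replicates 1 to 5, against 273, 284, 342, 202 and 302 CPM in shLUC replicates 1 to 5. Its log2 fold change of 0.14 (SE 0.20) turned to -0.03 without shPKLR replicate 3. Hal ranged from 305 to 527 CPM in shPKLR livers and from 163 to 385 CPM in shLUC livers (log2 fold change 0.25, SE 0.22). Sds ranged from 62.1 to 120 CPM in shPKLR livers and from 54.2 to 104 CPM in shLUC livers (0.26, SE 0.20). Sdsl ranged from 6.77 to 19.9 CPM in shPKLR livers and from 8.62 to 12.6 CPM in shLUC livers (0.23, SE 0.24). All of these ranges overlapped. With 1 liver left out, the log2 fold change of Sdsl ran from 0.0071 to 0.38.

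For the remaining genes the knockdown left small values. Cyp2f2 averaged 850 ± 152 CPM in shPKLR livers and 719 ± 192 CPM in shLUC livers (SD, n = 5 each; log2 fold change 0.23, SE 0.19). Ctsc averaged 54.4 ± 9.75 CPM in shPKLR livers and 45.2 ± 6.40 CPM in shLUC livers (SD, n = 5 each; 0.26, SE 0.15). Macrophage markers summed to between 132 and 349 CPM in shPKLR livers and between 144 and 267 CPM in shLUC livers, and their part in the Ctsc level was not tested. Pigr was the only gene of the 9 below 0, with 1086 ± 107 CPM in shPKLR livers and 1220 ± 209 CPM in shLUC livers (SD, n = 5 each; -0.18, SE 0.15).

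The difference between the overexpression effect and the knockdown effect was tested in 1 model of all 20 livers. edgeR called 0 of the 9 genes, against 5.5% of the 16407 genes tested and 2.75% that were called lower. DESeq2 called 3 (Cdh1, Sds and Gls2), against 9.91% of all genes, and limma-voom 1 (Cdh1), against 5.04%, all of them lower. At an unadjusted p under 0.05, 6 of the 9 passed and all 6 were negative, against 25.7% of all genes in both directions. The largest differences on the log2 scale were -1.49 (SE 0.47, edgeR adjusted p = 0.064) for Cdh1 and -1.48 (SE 0.55, edgeR adjusted p = 0.11) for Aldh1b1.

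Among the amino acid enzymes the difference was -0.98 (SE 0.32, edgeR adjusted p = 0.069) for Sds, -0.87 (SE 0.30, edgeR adjusted p = 0.086) for Sdsl, -0.77 (SE 0.25, edgeR adjusted p = 0.073) for Gls2 and -0.73 (SE 0.31, edgeR adjusted p = 0.14) for Hal. Ctsc (-0.22, SE 0.24), Cyp2f2 (0.02, SE 0.24) and Pigr (0.29, SE 0.20) did not pass. Single livers decided several of these calls. Cdh1 passed without shLUC replicate 1 (adjusted p = 0.029), Sdsl without shPKLR replicate 1 (adjusted p = 0.030) and Gls2 without shPKLR replicate 2 (adjusted p = 0.046). Sds passed without shPKLR replicate 5 (adjusted p = 0.043) or PKLR replicate 3 (adjusted p = 0.047).

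The 2 control groups differed in Cdh1, and also in Pklr itself. Pklr averaged 118 ± 34.5 CPM in GFP livers and 479 ± 116 CPM in shLUC livers (SD, n = 5 each; log2 fold change -2.02, SE 0.30, edgeR adjusted p = 0.0013), and its ranges were apart. GFP livers and shLUC livers differ in vector and in experiment, which cannot be told apart, and this contrast shares its livers with the comparisons above. Of the 9 genes 1, Cdh1, was called higher in GFP livers, against 5.81% of the 16407 genes called in either direction and 3.47% called higher. Cdh1 averaged 46.1 ± 11.8 CPM in GFP livers and 20.4 ± 11.6 CPM in shLUC livers (SD, n = 5 each), with a log2 fold change of 1.18 (SE 0.34, edgeR adjusted p = 0.042). The call ended when shLUC replicate 2, 3, 4 or 5, GFP replicate 1, 2 or 4, or PKLR replicate 2 was left out, with adjusted p-values between 0.053 and 0.13. It also ended with RLE size factors (adjusted p = 0.0500105, just over the threshold) and with no filter on low counts (adjusted p = 0.093). A block for replicate number ended it too (edgeR adjusted p = 0.072). Of 7 cholangiocyte markers tested in this contrast, edgeR called 1, Sox9, at 7.95 ± 1.30 CPM in GFP livers and 3.87 ± 1.22 CPM in shLUC livers (SD, n = 5 each; 1.04, SE 0.30, edgeR adjusted p = 0.044). The summed cholangiocyte markers stood between 51.1 and 67.6 CPM in GFP livers and between 46.8 and 57.1 CPM in shLUC livers. Of the 6 stellate cell and matrix markers, edgeR called 3 higher in GFP livers, the collagen genes Col1a1 (2.05, SE 0.41), Col3a1 (1.69, SE 0.31) and Col1a2 (1.58, SE 0.30). DESeq2 and limma-voom called the same marker genes, which are named after their values were seen, and their part in the Cdh1 level was not tested.

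Aldh1b1 was the only gene of the 9 whose control groups did not overlap, lying higher in GFP livers, where 7.99% of all genes did not overlap and 3.97% lay higher. It averaged 114 ± 17.7 CPM in GFP livers and 53.9 ± 7.67 CPM in shLUC livers (SD, n = 5 each), with a log2 fold change of 1.08 (SE 0.39, edgeR adjusted p = 0.12). It passed without shPKLR replicate 3 (adjusted p = 0.026). The amino acid enzymes had positive values too: 0.59 (SE 0.22) for Sds, 0.50 (SE 0.21) for Sdsl, 0.32 (SE 0.22) for Hal and 0.31 (SE 0.18) for Gls2, none of which passed.

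Seen over the 4 groups, Gls2, Hal, Sds, Sdsl and Aldh1b1 had the same order of means, with GFP livers highest, then shPKLR, then shLUC, and PKLR livers lowest. Only Sds and Sdsl kept this order by median. By medians, shPKLR lay below shLUC for Gls2 (272 against 284 CPM), Hal (314 against 320 CPM) and Aldh1b1 (37.2 against 51.9 CPM). For Aldh1b1 the shPKLR median also lay below that of PKLR livers (45.5 CPM). For Cdh1 GFP livers were again highest and shLUC livers lowest. For Pigr the order was different, with shLUC livers highest and GFP livers lowest. In each of the 9 genes, every group overlapped in range with the next group in the order of means.

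**Figure D2:**
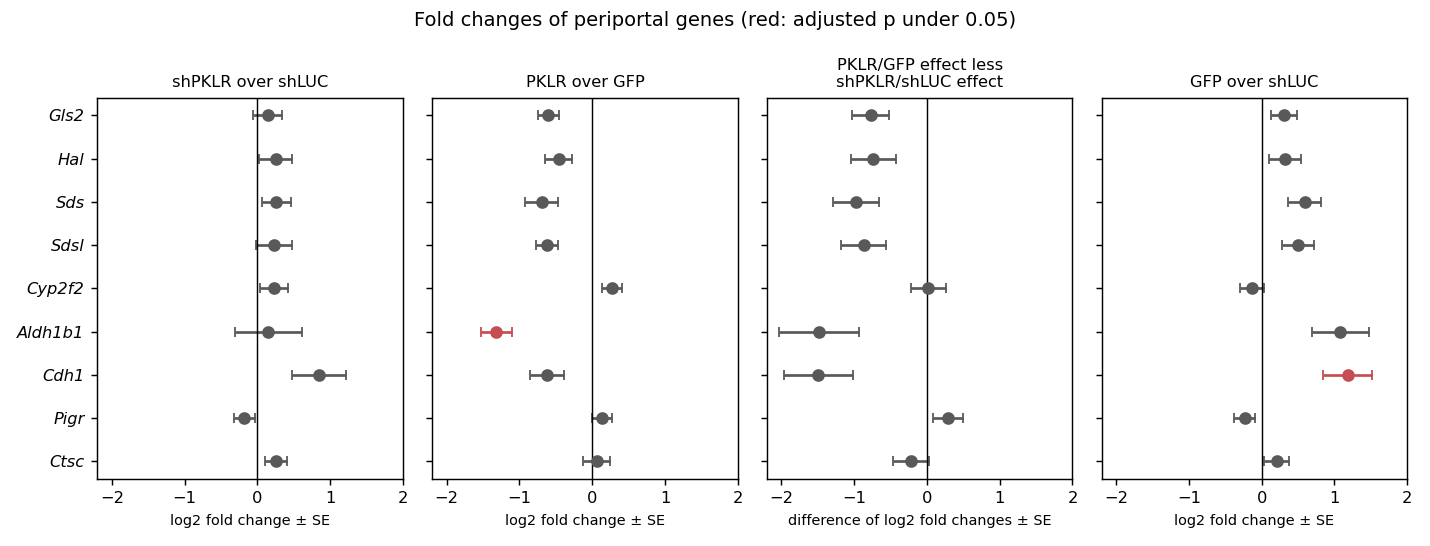
Log2 fold change ± SE (horizontal axes) of the 9 genes in 4 edgeR contrasts, with red for an adjusted p under 0.05. Aldh1b1 is the red point for PKLR over GFP (-1.32), and Cdh1 is the red point for GFP over shLUC (1.18).

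The genes also varied from liver to liver inside the groups, and some of them did so together. With each group's mean subtracted from log2 CPM, 32 of the 36 pairs among the 9 genes had a positive Pearson r over the 20 livers, with a median of 0.39. Points of a pair come from the same library, so they share its depth and composition. After adjustment over the 36 pairs, 5 pairs passed at 0.05 by Pearson r in a two-sided permutation test with 100000 permutations within groups, all of them positive. No share over pairs of other genes is given here, so these counts are not shown to be particular to the 9 genes.

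Hal and Pigr had the highest r (Pearson r = 0.88, permutation p = 1e-05, adjusted p = 0.00018; Spearman rho = 0.87, permutation p = 2e-05, adjusted p = 0.00072), and 1e-05 is the smallest p these permutations can give. Without the 2 livers farthest from the median of Hal, r was 0.78. Gls2 and Hal followed (r = 0.87, permutation p = 1e-05, adjusted p = 0.00018; rho = 0.88, permutation p = 4e-05, adjusted p = 0.00072; r = 0.82 without the 2 farthest livers). Gls2 was also correlated with Sdsl (r = 0.81, permutation p = 0.00016, adjusted p = 0.0019; rho = 0.79, permutation p = 0.00026, adjusted p = 0.0031; r = 0.73 without the 2 farthest livers).

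The other pairs that passed were Gls2 with Pigr (r = 0.69, permutation p = 0.00085, adjusted p = 0.0067; rho = 0.73, permutation p = 0.00083, adjusted p = 0.0075; r = 0.66 without the 2 farthest livers) and Hal with Sdsl (r = 0.65, permutation p = 0.00093, adjusted p = 0.0067; rho = 0.65, permutation p = 0.0032, adjusted p = 0.019; r = 0.62 without the 2 farthest livers). Gls2 and Hal thus varied with each other and with both Sdsl and Pigr, while Sdsl with Pigr did not pass (r = 0.45, permutation p = 0.028, adjusted p = 0.11; rho = 0.50, permutation p = 0.026, adjusted p = 0.092; r = 0.67 without the 2 farthest livers). Hal with Sds (rho = 0.66, permutation p = 0.0028, adjusted p = 0.019; r = 0.60, permutation p = 0.0098, adjusted p = 0.050) and Sdsl with Cyp2f2 (rho = 0.64, permutation p = 0.0060, adjusted p = 0.031; r = 0.58, permutation p = 0.0092, adjusted p = 0.050) passed by Spearman rho and narrowly missed by Pearson r. Their r was 0.65 and 0.52 without the 2 farthest livers. Sds and its neighbour Sdsl had an r of 0.44 (permutation p = 0.072, adjusted p = 0.20; rho = 0.46, permutation p = 0.063, adjusted p = 0.17; r = 0.39 without the 2 farthest livers), which did not pass.

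**Figure D3:**
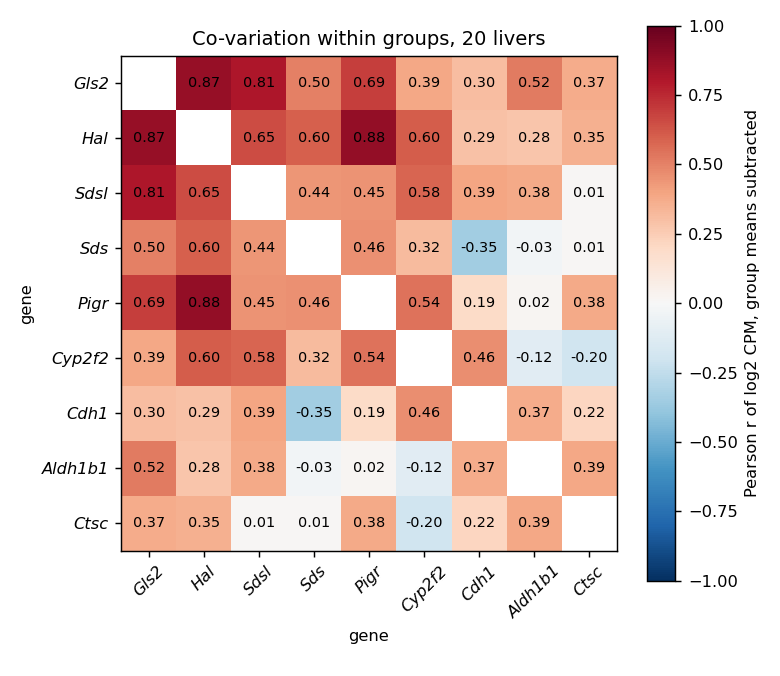
Pearson r (colour and printed value) of log2 CPM between each pair of the 9 genes over 20 livers, after the mean of each group was subtracted. Hal with Pigr (0.88), Gls2 with Hal (0.87) and Gls2 with Sdsl (0.81) have the highest values.

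Each gene was also set beside 10654 other genes by the same measure, and the single most similar gene was taken. For Gls2 it was Hal, and for Hal and Pigr it was the other one of the pair, so 3 of the 9 had their closest match within the list. For Cyp2f2 it was Mtmr14, for Aldh1b1 Cdkl2, for Sdsl Tmem183a, for Cdh1 Amacr, for Sds Fgfr4 and for Ctsc Irak4, with Pearson r between 0.80 and 0.90. Each is the highest of many values, so no test is given.

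Of 13 other genes known from the same zone, edgeR called 0 in PKLR livers against GFP livers, with 10 below 0, a median log2 fold change of -0.27 and 4 at an unadjusted p under 0.05. DESeq2 called 1 of them and limma-voom 0. Over all genes 18.8% had an unadjusted p under 0.05 in this comparison, DESeq2 called 6.99% and limma-voom 1.62%. These shares also stand beside the lists below. Pck1, which starts gluconeogenesis from oxaloacetate, averaged 1195 ± 552 CPM in PKLR livers and 2139 ± 483 CPM in GFP livers (SD, n = 5 each; -0.82, SE 0.29, edgeR adjusted p = 0.15; adjusted p = 0.038 without PKLR replicate 5). Etnppl, a phospholyase of phosphoethanolamine, averaged 87.4 ± 30.7 CPM in PKLR livers and 141 ± 29.2 CPM in GFP livers (SD, n = 5 each; -0.67, SE 0.24).

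In shPKLR livers against shLUC livers, edgeR called 0 of the 13 other periportal genes, as did DESeq2 and limma-voom, with 1 at an unadjusted p under 0.05. Their median was -0.02. Over all genes 15.0% had an unadjusted p under 0.05 in the knockdown and DESeq2 called 1.67%, shares that also stand beside the lists below. In the difference of effects edgeR called 5.5% of all genes. Pck1 averaged 1450 ± 396 CPM in shPKLR livers and 850 ± 186 CPM in shLUC livers (SD, n = 5 each; 0.76, SE 0.22, edgeR adjusted p = 0.22). In the difference of effects edgeR called 1 of the 13, Pck1 (-1.61, SE 0.37, edgeR adjusted p = 0.018), which was also higher in GFP livers than in shLUC livers (1.33, SE 0.27, edgeR adjusted p = 0.0059). Apoa4, an apolipoprotein, averaged 435 ± 221 CPM in shPKLR livers and 670 ± 271 CPM in shLUC livers (SD, n = 5 each; -0.63, SE 0.34).

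Of 14 pericentral genes, edgeR called 2 higher in PKLR livers than in GFP livers, against 1.19% of all genes called higher, and the list had a median of 0.42. Glul, glutamine synthetase, which binds the ammonia that Gls2 and the other enzymes release, averaged 1007 ± 131 CPM in PKLR livers and 598 ± 27.2 CPM in GFP livers (SD, n = 5 each; 0.77, SE 0.10, edgeR adjusted p = 0.0055), and passed in all 18 other fits. Nkd1, a Wnt feedback gene, averaged 6.24 ± 1.04 CPM in PKLR livers and 4.13 ± 0.32 CPM in GFP livers (SD, n = 5 each; 0.61, SE 0.13, edgeR adjusted p = 0.033). The Nkd1 call ended without GFP replicate 1, 2, 3 or 4 or PKLR replicate 1, 2 or 3 (adjusted p between 0.0509 and 0.0791) and in the fit of all 20 livers (adjusted p = 0.11). It also ended with a block for replicate number (edgeR adjusted p = 0.062). In GFP livers against shLUC livers, 12 of the 14 genes lay below 0. edgeR called Glul (-0.84, SE 0.15, adjusted p = 0.003) and Nkd1 (-0.82, SE 0.19, adjusted p = 0.015) lower there. It called 5.81% of all genes in that contrast in either direction. shLUC livers averaged 1067 ± 148 CPM for Glul and 7.31 ± 0.84 CPM for Nkd1 (SD, n = 5 each). In the difference of effects edgeR called 1 of the 14, Glul (1.13, SE 0.21, adjusted p = 0.0047), against 5.5% of all genes.

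In shPKLR livers the pericentral list had 0 calls by edgeR, DESeq2 and limma-voom, 1 unadjusted p under 0.05 and a median of -0.10. Oat, ornithine aminotransferase, averaged 418 ± 196 CPM in shPKLR livers and 778 ± 127 CPM in shLUC livers (SD, n = 5 each; -0.91, SE 0.28, edgeR adjusted p = 0.24). Cyp2e1, an ethanol-oxidising cytochrome P450, averaged 4412 ± 1124 CPM in shPKLR livers and 5688 ± 632 CPM in shLUC livers (SD, n = 5 each; -0.38, SE 0.18).

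Of 11 genes that regulate zonation, edgeR called 1 higher in PKLR livers than in GFP livers, against 1.19% of all genes called higher. DESeq2 called 2, Wnt9b and Tcf7l2 (DESeq2 adjusted p = 0.024 for Tcf7l2), against 6.99% of all genes. With limma-voom 1 was called, Wnt9b, against 1.62% of all genes. The edgeR call was Wnt9b, a Wnt ligand of central vein endothelium. It was below 1 CPM, at 0.796 ± 0.129 CPM in PKLR livers and 0.358 ± 0.0719 CPM in GFP livers (SD, n = 5 each; 1.17, SE 0.22, edgeR adjusted p = 0.024). Its call ended without GFP replicate 1, 2 or 4 or PKLR replicate 1, 2 or 3 (adjusted p between 0.0504 and 0.0704) and in the fit of all 20 livers (adjusted p = 0.096). A block for replicate number ended it too (edgeR adjusted p = 0.051). Tcf7l2, a transcription factor partner of beta-catenin, averaged 17.8 ± 1.17 CPM in PKLR livers and 14.2 ± 1.72 CPM in GFP livers (SD, n = 5 each; 0.34, SE 0.09, edgeR adjusted p = 0.077; adjusted p = 0.031 without GFP replicate 3). Its mean was also higher with the knockdown, at 20.2 ± 4.81 CPM in shPKLR livers and 15.9 ± 1.28 CPM in shLUC livers (SD, n = 5 each), without a call. In shPKLR livers edgeR, DESeq2 and limma-voom called 0 of the 11, and 3 had an unadjusted p under 0.05. Rspo3, a Wnt-enhancing ligand, was at -0.49 (SE 0.18) on the log2 scale, and Tcf7l1, another factor of the Tcf family, at 0.36 (SE 0.14).

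**Figure D4:**
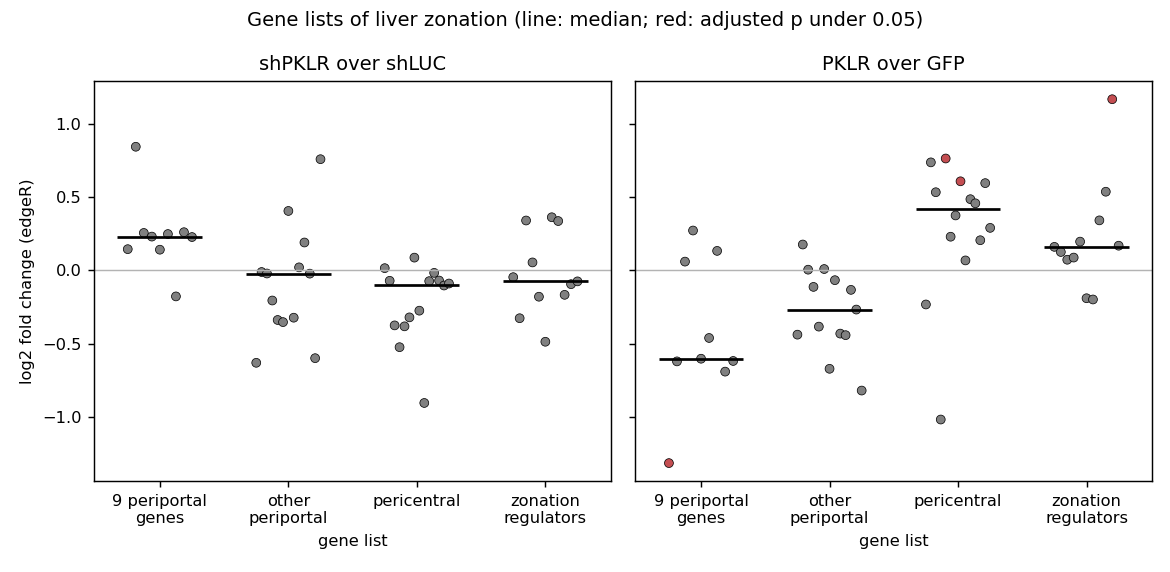
Log2 fold change (vertical axis) of each tested gene in 4 lists, for shPKLR over shLUC at left and PKLR over GFP at right, with a line at the list median and red for an adjusted p under 0.05. For PKLR over GFP the medians are -0.60 for the 9 genes, -0.27 for other periportal genes and 0.42 for pericentral genes.

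The direct biochemical partners of the 9 genes gave a mixed picture. In PKLR livers against GFP livers, edgeR called 1.19% of all genes higher. Of 11 genes of histidine, serine and glutamine handling, it called 1 higher. It was Shmt1, cytosolic serine hydroxymethyltransferase, at 168 ± 9.62 CPM in PKLR livers and 113 ± 24.9 CPM in GFP livers (SD, n = 5 each; 0.58, SE 0.13, edgeR adjusted p = 0.047). This call ended with RLE size factors (adjusted p = 0.052), with a filter of over 1 CPM in 5 libraries (adjusted p = 0.051), in the fit of all 20 livers (adjusted p = 0.059) and without GFP replicate 1, 2 or 4 or any 1 of the 5 PKLR livers (adjusted p between 0.066 and 0.11). Agxt, which moves amino groups from serine or alanine to glyoxylate, averaged 172 ± 41.4 CPM in PKLR livers and 285 ± 43.9 CPM in GFP livers (SD, n = 5 each; -0.71, SE 0.17, edgeR adjusted p = 0.061; DESeq2 adjusted p = 0.0029). The median of the list was 0.02.

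In shPKLR livers edgeR and limma-voom called 0 of the 11 partners and DESeq2 1, Shmt1, with 2 at an unadjusted p under 0.05. Shmt1 averaged 135 ± 34.9 CPM in shPKLR livers and 207 ± 17.9 CPM in shLUC livers (SD, n = 5 each; -0.62, SE 0.17, edgeR adjusted p = 0.21). Hnmt, which methylates histamine, was at -0.46 (SE 0.17) on the log2 scale. In the difference of effects edgeR called 1 of the 11, Shmt1 (1.18, SE 0.22, edgeR adjusted p = 0.0041), against 5.5% of all genes. Shmt1 was also called lower in GFP livers than in shLUC livers (-0.87, SE 0.16, edgeR adjusted p = 0.0029).

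Of 16 other members of the aldehyde dehydrogenase family tested in PKLR livers against GFP livers, edgeR and limma-voom called 0 and DESeq2 2, with 4 at an unadjusted p under 0.05 and a median of 0.05. Aldh1a1, the cytosolic retinal dehydrogenase, averaged 1087 ± 201 CPM in PKLR livers and 772 ± 103 CPM in GFP livers (SD, n = 5 each; 0.51, SE 0.14, edgeR adjusted p = 0.091). Aldh1a3, another retinal dehydrogenase, was below 1 CPM on average in both groups (-1.04, SE 0.29). In shPKLR livers edgeR and limma-voom called 0 of 15 and DESeq2 1, Aldh3b1 (1.02, SE 0.27), with 4 at an unadjusted p under 0.05. Aldh9a1, which oxidises an aldehyde of carnitine synthesis, was at -0.36 (SE 0.12). In the difference of effects edgeR called 2 of 16, Aldh3b1 (-1.30, SE 0.37, edgeR adjusted p = 0.042) and Aldh9a1 (0.55, SE 0.13, edgeR adjusted p = 0.023). It called 5.5% of all genes there.

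Neither the adhesion partners of Cdh1 nor the other cathepsins held a call by edgeR in either experiment. Of the 5 cadherin and catenin genes, 1 had an unadjusted p under 0.05 for PKLR against GFP and 0 for shPKLR against shLUC, and DESeq2 and limma-voom called 0. Cdh2, N-cadherin, was at 0.19 (SE 0.08) for PKLR against GFP and -0.39 (SE 0.19) for shPKLR against shLUC. Ctnnb1, beta-catenin, was at 0.13 (SE 0.07) for PKLR against GFP, and Ctnna1, alpha-catenin, at -0.14 (SE 0.11) for shPKLR against shLUC. Of the 10 other cathepsin genes, 3 had an unadjusted p under 0.05 in each experiment, DESeq2 called 1 for PKLR against GFP and 0 for shPKLR against shLUC, and limma-voom called 0. Ctsf was at -0.31 (SE 0.07, edgeR adjusted p = 0.053; adjusted p = 0.045 without GFP replicate 5) and Ctso at 0.20 (SE 0.08) for PKLR against GFP. The aspartic protease Ctsd (-0.43, SE 0.16) and the cysteine protease Ctsl (-0.39, SE 0.17) were below 0 for shPKLR against shLUC.

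Markers of stellate cells and matrix stood lower in PKLR livers than in GFP livers at an unadjusted p under 0.05 for 5 of 6 genes, though edgeR and limma-voom called 0 and DESeq2 4. Over all genes 18.8% had such a p in either direction, and DESeq2 called 6.99%. These markers, none at 0, summed to between 123 and 243 CPM in PKLR livers and between 194 and 420 CPM in GFP livers, and to between 115 and 215 CPM in shPKLR livers and between 148 and 234 CPM in shLUC livers. Their part in the values of the 9 genes was not tested. Neutrophil markers (7 of 8 matched in both tables, with Ltf at 0 in shLUC livers) stayed between 0.476 and 4.25 CPM in sum in all livers. T and NK cell markers summed to between 2.47 and 6.21 CPM, B and plasma cell markers to between 4.73 and 18.7 CPM, and endothelial markers to between 60.1 and 138 CPM.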

How the data were processed

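RNA of 20 frozen livers was sequenced from stranded total RNA libraries, per the labels' protocols. The authors deposited 2 tables of raw read counts per Ensembl gene, 1 per experiment, with 27052 and 26286 genes (25238 in both), per the file headers. Per the submitters' processing notes, HISAT2 and DESeq2 were used with builds GRCm38 and mm10; what did the counting, with which annotation release and strand, is not given in the sources used here. Groups and replicate numbers came from sample titles, and 0 value columns were left unmatched. GENCODE M21 gave symbols, coordinates and exon lengths.

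Comparisons within an experiment used edgeR 4.0.16 (robust quasi-likelihood, filterByExpr, TMM) in R 4.3.3 with Benjamini-Hochberg adjustment over all genes tested and a threshold of 0.05. The difference of effects and GFP against shLUC came from 1 fit of the 25238 shared genes in 20 livers. SE is the log2 fold change divided by the square root of F. CPM values use TMM scaling over 20 livers, and log2 CPM a prior count of 2. Alternatives were RLE, other filters, DESeq2 1.42.0, limma-voom (limma 3.58.1), a replicate block, mitochondrial and rRNA genes left out, 1 fit of all livers, each liver left out, and shPKLR replicate 4 thinned, the last chosen after seeing the data. On simulated counts, with 100 genes changed by each fold, 2-fold and 4-fold changes were recovered in 80% and 96% of genes for knockdown (15425 genes tested), 91% and 98% for overexpression (15672), 57% and 95% for the difference of effects (16237) and 89% and 98% for GFP against shLUC (16222).

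The 9 genes and all lists were chosen with earlier results of these data known. Genes named from each list are up to 2 with the smallest p in each experiment. Nothing states that replicates are more than separate livers; p-values measure the spread between them.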

Additional observations from a re-analysis of the deposited data

Results flagged for a closer look

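In 36 sets of 5 livers (9 genes in 4 groups), 3 held a liver set far from the other 4 by Dixon's criterion, which chance gives in about 1 of 20 sets. Hal in shPKLR replicate 3 stood at 527 CPM, above the other shPKLR livers. Cyp2f2 in GFP replicate 1 stood at 491 CPM, below the other GFP livers. Aldh1b1 in shLUC replicate 5 stood at 67.1 CPM, above the other shLUC livers.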

How the results depend on the processing

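Over 837 recomputed values of the 9 genes, 790 kept direction and call, 19 became calls, 12 lost a call and 16 turned. The number of the 9 genes called for PKLR against GFP was 1, and became 2 with no filter on low counts, 4 with DESeq2 and 0 in 1 fit of all 20 livers; leaving out 1 liver gave 1 to 2. For the difference of effects it was 0, and became 3 with DESeq2 and 1 with limma-voom; leaving out 1 liver gave 0 to 1. For GFP against shLUC it was 1, and became 0 with RLE size factors or no filter on low counts; leaving out 1 liver gave 0 to 2. For shPKLR against shLUC it was 0 under all alternatives run. No share over all genes is given for the fits without a filter or with 1 liver left out. Their counts are therefore not shown to be particular to the 9 genes.

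The labels do not state that replicate numbers pair the livers. Correlations of deviations between livers of the same number ran from -0.20 to 0.35 in the knockdown and from -0.11 to 0.26 in the overexpression. The same number was the best match for shPKLR replicate 4 and for PKLR replicates 1 and 5. These values have no reference for unpaired livers, so they cannot settle whether the numbers pair. With the replicate block, 3 genes (Gls2, Sdsl and Aldh1b1) were called for PKLR against GFP, 2 (Gls2 and Sds) for the difference and 0 for GFP against shLUC. The share of all genes called with the block is not given here, so these counts are not shown to be particular to the 9 genes. Outside the 9 genes, the block ended the calls of Nkd1 and Wnt9b for PKLR against GFP.

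None of the values that turned was called. Aldh1b1 in the knockdown was -0.24 with limma-voom and -0.30 with the replicate block, and ran from -0.53 to 0.39 with 1 liver left out. Gls2 in the knockdown ran from -0.032 to 0.22 with 1 liver left out, and Ctsc in the overexpression from -0.041 to 0.23. Cyp2f2 in the difference was -0.0057 when genes had to exceed 1 CPM in 5 libraries and -0.0085 with the replicate block, and ran from -0.13 to 0.11 with 1 liver left out; in GFP against shLUC it ran from -0.22 to 0.023. The cause was not tested. Each value of the 9 genes rests on 233 counts or more, and 5 livers per group limit the precision.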
